A study of Mus musculus with 36 samples.

Results

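The comparison set 3 embryonic fibroblast lines homozygous for the Tbk1 N129D knock-in allele (hom; genotype N129D/N129D; E1.4 together with E2.2 and E2.9) against 3 wild-type lines (WT; wt/wt; E1.5 together with E2.1 and E2.7), all given poly(I:C) for 4 h. The members were chosen from the sample titles alone, as the libraries with the label pI:pC and no density label, and they are 6 of the 36 libraries of the series. The same 6 lines without treatment (6 libraries) and the 4 heterozygous lines under poly(I:C) (het; N129D/wt; E1.3, then E2.5 and E2.6, and E2.8) served for comparison. To estimate the spread, the main fit also took in untreated het libraries and WT, het and hom libraries given antimycin and oligomycin for 4 h. Murine embryonic fibroblasts are mesenchymal cells grown out of mouse embryos, and here they were kept in DMEM. Libraries were made from polyadenylated RNA, and the values are read counts per gene. Each line gave 1 library per treatment without a density label, and the titles do not state the density of these. The labels name separate lines and do not say whether each came from a separate embryo, so the p-values speak for lines, not embryos. In the main fit they rest on a spread pooled over all its groups, with libraries of 1 line taken as independent. They do not measure the spread of the compared lines alone.

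TBK1 is a serine/threonine kinase at the junction of several pathways that sense foreign nucleic acid. Poly(I:C) mimics viral RNA with its paired strands. It is bound by the endosomal receptor TLR3 and the cytosolic helicases RIG-I and MDA5, and their adaptors TRIF and MAVS bring TBK1 and its relative IKKε to the transcription factor IRF3. Phosphorylated IRF3, together with NF-κB, switches on Ifnb1, and secreted interferon beta then acts through its receptor, JAK kinases and the transcription factor complex ISGF3, which holds STAT2 and IRF9, to switch on a wide set of antiviral genes, the interferon-stimulated genes.

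The 6 libraries held 4309127 to 7948232 counts, and the 30 libraries without a density label, which were fitted together, held 3689144 to 14879227. Tbk1 itself (chromosome 10, 121546455 to 121586787, minus strand, GRCm38) stood at 36.3, 42.8 and 36.8 CPM (counts scaled to the TMM-adjusted total of each library) in the WT lines and at 37.1, 35.5 and 38.6 CPM in the hom lines; here and below, values follow the order in which the lines were named above. These levels overlapped, and a change of 1 amino acid need not alter an mRNA level, so they are no check of the genotype labels. Fibroblast markers, among them Col1a1, Col3a1 and Vim, summed to 14510 to 15820 CPM in WT and 15480 to 19000 CPM in hom lines, with 11 of 11 markers counted in every library. Line E2.9 stood apart: all 18 macrophage markers had counts there, with a sum of 290.9 CPM under poly(I:C) and 277.8 CPM untreated, against 4.87 to 7.25 CPM and 6 to 9 markers counted in the other 5 libraries of the comparison. Summed lymphoid markers were at most 0.262 CPM, erythroid markers at most 0.406 CPM, endothelial markers 7.12 to 19.7 CPM and epithelial markers 4.98 to 33.9 CPM in the 6 libraries. Chondrocyte markers came to 128 to 242 CPM in WT and 230 to 489 CPM in hom lines, smooth muscle markers to 2213 to 3479 and 2372 to 4160 CPM and neural markers to 265 to 392 and 324 to 537 CPM. The parts that these other cells play in the differences below were not tested; the number of calls and the medians of the effector, NF-κB and inflammatory lists are also given without line E2.9.

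Factors of the pathway bind short sequence patterns in promoters. Below are the 250 bases before the start of 5 called genes, from RefSeq on GRCm38.p6, written 5′ to 3′ along the gene; they were chosen among called genes with a match, to stand for the interferon itself, a cytokine, 2 classical interferon-stimulated genes and a stress gene. Capitals mark the core of the interferon-stimulated response element (ISRE), GAAA, 2 times, with any 2 bases between them, bound by ISGF3 and IRF proteins, or the κB pattern GGGA, any 2 bases and TTCC, bound by NF-κB, on either strand.
Ifnb1, chr4:88522795-88523044, minus strand: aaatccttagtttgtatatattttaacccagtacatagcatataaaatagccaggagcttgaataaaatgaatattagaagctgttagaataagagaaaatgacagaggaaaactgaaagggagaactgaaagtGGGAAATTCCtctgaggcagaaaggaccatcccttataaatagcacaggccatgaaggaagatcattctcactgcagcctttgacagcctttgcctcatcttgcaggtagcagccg
Il6, chr5:30012864-30013113, plus strand: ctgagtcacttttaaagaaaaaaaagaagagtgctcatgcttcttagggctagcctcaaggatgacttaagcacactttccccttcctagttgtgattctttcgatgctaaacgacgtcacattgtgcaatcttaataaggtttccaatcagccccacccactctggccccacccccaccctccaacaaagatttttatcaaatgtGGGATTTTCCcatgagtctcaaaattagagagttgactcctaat
Ifit1, chr19:34640639-34640888, plus strand: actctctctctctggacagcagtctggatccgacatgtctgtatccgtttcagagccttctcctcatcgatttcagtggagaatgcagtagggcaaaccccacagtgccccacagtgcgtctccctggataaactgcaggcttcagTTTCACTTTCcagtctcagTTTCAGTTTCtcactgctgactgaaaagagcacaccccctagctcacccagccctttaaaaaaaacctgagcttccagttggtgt
Isg15, chr4:156200819-156201068, minus strand: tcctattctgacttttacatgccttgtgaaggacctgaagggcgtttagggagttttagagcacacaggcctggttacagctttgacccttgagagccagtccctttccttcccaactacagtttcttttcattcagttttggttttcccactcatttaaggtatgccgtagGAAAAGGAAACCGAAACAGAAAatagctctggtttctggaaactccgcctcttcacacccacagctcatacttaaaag
Ppp1r15a, chr7:45526269-45526518, minus strand: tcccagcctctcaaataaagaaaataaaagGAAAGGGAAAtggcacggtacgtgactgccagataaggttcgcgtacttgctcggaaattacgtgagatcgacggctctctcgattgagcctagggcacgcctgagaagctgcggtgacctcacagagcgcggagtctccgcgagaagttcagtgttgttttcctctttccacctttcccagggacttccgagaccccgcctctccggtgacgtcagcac
The capitals in Ifnb1, 116 bases before the start, and in Il6, 44 bases before it, are κB matches. Those in Ifit1, Isg15 and Ppp1r15a are ISRE cores, 2 that do not overlap in Ifit1, 3 that overlap in Isg15, and 1 that lies 220 bases upstream in Ppp1r15a. Of the 34 genes called below, 27 had a window in the table, and 9 of these held an ISRE core: Ddx60, Gm12185, Ifit1, Ifit3, Ifit3b, Irgm2, Isg15, Ppp1r15a and Stat2. That is 33.3%, against 3.46% of all 27025 gene symbols with a window and 2.98% of all 32851 windows. A κB match stood in 3 of the 27 (Ifit2, Ifnb1 and Il6; 11.1%), against 1.36% of symbols and 1.21% of windows. Other called genes with a window, among them Oasl1, Ifih1, Ccne1 and Trim21, held neither pattern in it. These are matches of letters, not measured binding.

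Under poly(I:C), 34 genes had lower mRNA levels in hom than in WT lines and none had higher levels, out of 13364 genes tested (edgeR quasi-likelihood test on all 9 groups, adjusted p under 0.05). The called genes make up 0.254% of those tested for the lower direction and 0% for the higher one. They are genes of the interferon pathway for the most part: interferon beta itself, the RNA sensor genes Ifih1 and Dhx58, the ISGF3 subunit genes Irf9 and Stat2, and antiviral effectors such as Ifit1, Mx2, Oasl1 and Isg15. The log2 differences ran from -1.11 (Gnb4) to -6.66 (Ifi44), with a median of -3.64, against a median of 0.02 over all genes. In 34 of 34 genes every hom line was below every WT line, a pattern that 5.46% of all tested genes showed downwards and 5.24% upwards. In 29 of the 34 the hom lines with poly(I:C) were even below all WT lines without it (15.9% of all genes).

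**Figure D1:**
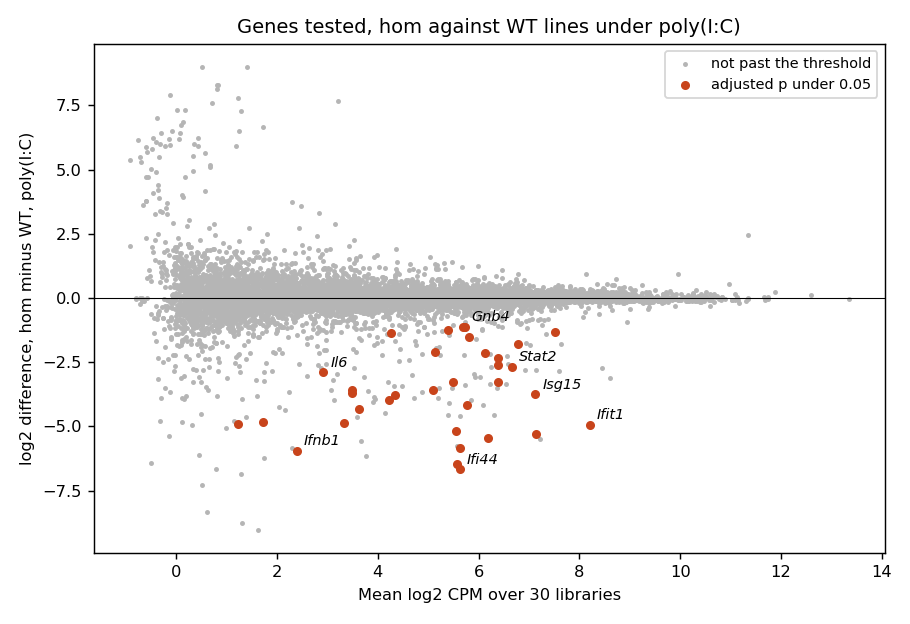
Each point is 1 of the 13364 genes tested, with its mean log2 CPM over 30 libraries on the x axis and its log2 difference between hom and WT lines under poly(I:C) on the y axis; red points passed the test. All 34 red points lie below 0, and of the 54 grey genes above 4 on the y axis, 43 had at least 90% of their hom CPM in line E2.9.

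The number of calls changed with the libraries in the fit. Left without any 1 of the 6 lines and all its libraries, the 9-group fit called 0 genes (without WT E1.5 or E2.7, or hom E1.4, E2.2 or E2.9) or 2 (Oasl1 and Apol7a, without WT E2.1), although 34 of 34 stayed lower each time. A fit on the 18 WT and hom libraries of all treatments, without the het lines, called 152 genes lower (1.18% of 12889) and 0% higher, the 34 among them, and 100 to 162 lower with a line left out (130 without hom E2.9). With the line as a replicate block, limma-voom called 67 genes lower, 25 of the 34 among them. By the unadjusted edgeR p, 342 genes were lower and 214 higher at 0.05, and DESeq2 called 101 lower and 2 higher (Dlc1 and Bach1).

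**Figure D2:**
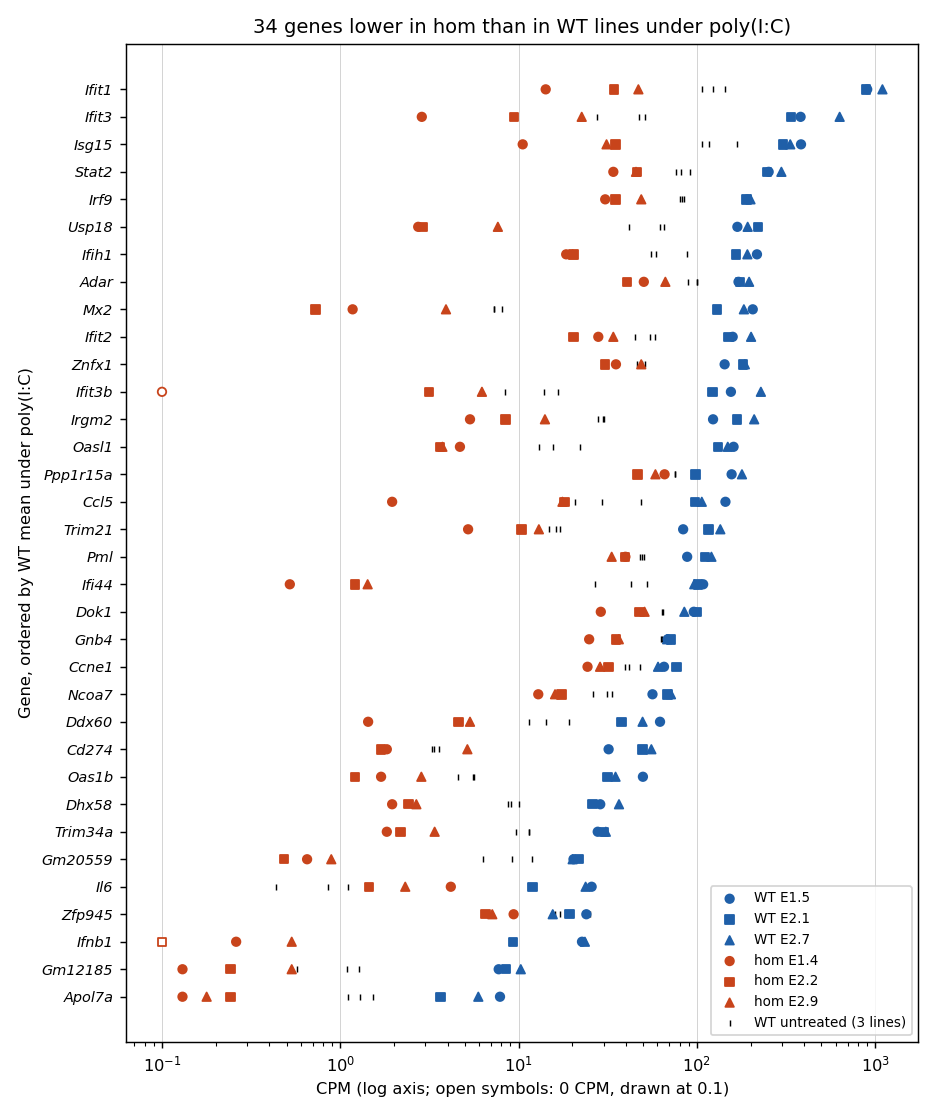
CPM on a log axis of the 34 genes in each WT (blue) and hom (red) line under poly(I:C), 1 symbol per line, with black ticks for the 3 untreated WT lines and open symbols for 0 CPM. The red and blue symbols do not overlap in any gene, and for 29 genes all red symbols also lie left of the 3 ticks.

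Interferon beta mRNA was close to 0 in the hom lines. Ifnb1 (chromosome 4, 88522025 to 88522774, minus strand), whose κB match is printed above, stood at 22.7, 9.33 and 23.6 CPM in WT lines and at 0.261, 0 and 0.534 CPM in hom lines. All 3 hom lines were near 0, and no untreated library of the 6 lines had a count. Pooled, 322 WT counts stood against 5 hom counts, 66.3-fold lower in hom (95% exact interval 28.1 to 206, counting error only; edgeR adjusted p = 0.0222). Ifna4, the alpha interferon that fibroblasts make early, had 11.8, 4.46 and 7.78 CPM in WT lines and 0 counts in all 3 hom lines. Its 146 pooled WT counts put it at least 50.1-fold lower in hom against a floor of 3 counts over the group, yet the edgeR test missed the threshold (adjusted p = 0.0848). Of 20 type I and III interferon genes listed, 9 had a count in the 6 libraries and these 2 passed the filter on low counts.

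The chemokines that recruit T cells followed. Ccl5 stood at 145, 97.5 and 107 CPM in WT and at 1.95, 18.1 and 17.6 CPM in hom lines, with hom E1.4 the lowest of all. The difference was -3.25 ± 0.68 (log2, SE; edgeR adjusted p = 0.0405). Cxcl10, a ligand of CXCR3, reached 974, 1219 and 1298 CPM in WT and 55.5, 132 and 216 CPM in hom lines. The groups did not overlap, and the difference of -3.12 ± 0.70 missed the threshold in the 9-group fit (adjusted p = 0.0558) and passed without the het lines (adjusted p = 0.000722). Cxcl11, which GENCODE lists as a polymorphic pseudogene, had 11.3, 10.95 and 20.1 CPM in WT and at most 1.07 CPM in hom lines (adjusted p = 0.0743). In this list of 4, 1 gene was called (0.254% of all genes), with a median log2 difference of -3.19. All 4 were higher under poly(I:C) than untreated in each hom line too (19.2% of all genes).

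Il6, a cytokine driven by NF-κB and other factors, was called lower in hom lines. Its level was 25.7, 11.96 and 23.8 CPM in WT and 4.17, 1.45 and 2.31 CPM in hom lines. Without treatment the 6 lines ran together, from 0.434 to 1.11 CPM in WT and 1.004 to 1.23 CPM in hom. Those levels rest on 2 to 7 counts per WT library and 8 to 10 per hom library, too few to show equal starts. The gap under poly(I:C) was -2.90 ± 0.61 (log2, SE; edgeR adjusted p = 0.0405). Il6 was the only called gene of 26 tested inflammatory cytokine, chemokine and adhesion genes (0.254% of all genes), whose median difference was 0.19. The chemokine gene Ccl7 and the cytokine gene Il15 also had every hom line below every WT line without passing, at 60.2 to 86.9 CPM in WT and 16.9 to 55.2 CPM in hom lines for Ccl7 and 1.18 to 2.29 and 0.484 to 1.07 CPM for Il15 (edgeR adjusted p = 1.0 each). They were named after their values were seen.

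Among sensors of nucleic acid and their adaptors, 4 of 17 tested genes were called lower (0.254% of all genes), with a median of -1.78. In 12 of them every hom line lay under every WT line (5.46% of all genes). In the fit without het lines 10 were called (1.18% of all genes). Ifih1, which encodes MDA5, stood at 217, 166 and 192 CPM in WT and 18.5, 20.3 and 20.1 CPM in hom lines. The hom values were close together and under the untreated WT range of 55.1 to 88.2 CPM, with a difference of -3.29 ± 0.56 (log2, SE; edgeR adjusted p = 0.0184). Dhx58, the gene of the regulatory helicase LGP2, had 28.7, 25.95 and 36.6 CPM against 1.95, 2.42 and 2.67 CPM (-3.70 ± 0.69; adjusted p = 0.0222). Ddx60, a helicase gene linked to RIG-I signalling, had 62.2, 37.7 and 49.6 CPM against 1.43, 4.59 and 5.34 CPM (-3.76 ± 0.79; adjusted p = 0.0405). Adar, whose product edits double-stranded RNA and has an interferon-driven isoform, differed less: 171, 175 and 196 CPM against 50.4, 40.6 and 66.6 CPM, or -1.78 ± 0.35 (adjusted p = 0.0355). In none of the 4 did the lines of the groups overlap.

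The genes of the kinase module itself did not pass. With 0.254% of all genes called lower and 0% higher, that is also what so short a list would show. Of 15 tested genes for TBK1, IKKε, their adaptors and substrates, 0 were called by edgeR in either direction (median 0.05, 12 of 15 with overlapping lines), and 1 in the fit without het lines. That gene was Azi2, an adaptor of both kinases, with 58.2, 66.3 and 71.1 CPM in WT and 46.0, 47.4 and 49.5 CPM in hom lines (-0.45 ± 0.18; adjusted p = 0.882 in the 9-group fit and 0.0488 without the het lines). Tbk1 differed by -0.06 ± 0.14, Ikbke by -0.06 ± 0.42 and Irf3, the main substrate in this pathway, by 0.24 ± 0.19 (log2, SE; edgeR adjusted p = 1.0 each). Irf3 ranged from 24.1 to 26.9 CPM in WT and from 24.9 to 33.3 CPM in hom lines, and those ranges overlapped. Sike1, a suppressor of IKKε, stood at 30.01 to 39.8 CPM in WT and 37.8 to 40.6 CPM in hom lines.

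IRF and STAT proteins are the transcription factors of the interferon response. Irf9 stood at 192, 190 and 200 CPM in WT and 30.6, 35.1 and 48.8 CPM in hom lines, and Stat2 at 253, 248 and 298 CPM and 34.01, 46.2 and 45.6 CPM. Both encode parts of ISGF3 and both were called, with differences of -2.35 ± 0.48 (edgeR adjusted p = 0.0356) and -2.67 ± 0.58 (adjusted p = 0.0486). Irf7, the factor that amplifies alpha interferons, had 93.1, 114 and 126 CPM against 2.08, 3.14 and 8.90 CPM (-4.57 ± 1.11; adjusted p = 0.0818, and 2.59e-06 without the het lines). In all, 2 of 14 tested IRF and STAT genes were called (0.254% of all genes), and 5 without the het lines (1.18% of all genes). The list's median was -0.36.

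Receptors and kinases upstream of ISGF3 were not among the called genes, while an inhibitor was. With 0.254% of all genes called lower and 0% higher, no call among them is also what so short a list would show. Ifnar1, a chain of the interferon receptor, stood at 69.8 to 71.9 CPM in WT and 77.9 to 87.0 CPM in hom lines (0.23 ± 0.13; edgeR adjusted p = 1.0), with no overlap. Usp18, which removes ISG15 and blocks the receptor, stood at 169, 220 and 193 CPM in WT and 2.74, 2.901 and 7.66 CPM in hom lines. That gap of -5.45 ± 1.20 passed (adjusted p = 0.0489), as 1 of 17 tested receptor, JAK and inhibitor genes, whose median was -0.03. Socs1, another feedback inhibitor, had 10.4, 11.4 and 24.9 CPM against 1.303, 3.14 and 3.38 CPM without passing (-2.59 ± 0.60; adjusted p = 0.0686, and 0.0154 without the het lines).

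The antiviral effectors made up the largest share of the calls. Over 7 lists of them, 102 genes were tested, and 16 were called lower and 0 higher (0.254% and 0% of all genes). In the fit without het lines 74 were called lower (1.18% of all genes). In 90 of the 102 every hom line lay under every WT line (5.46% of all genes), and 99 had a negative difference, with a median of -2.81 that was -3.65 without hom E2.9. The lists were chosen with these results known, so the counts describe them and are no separate evidence of a direction.

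**Figure D3:**
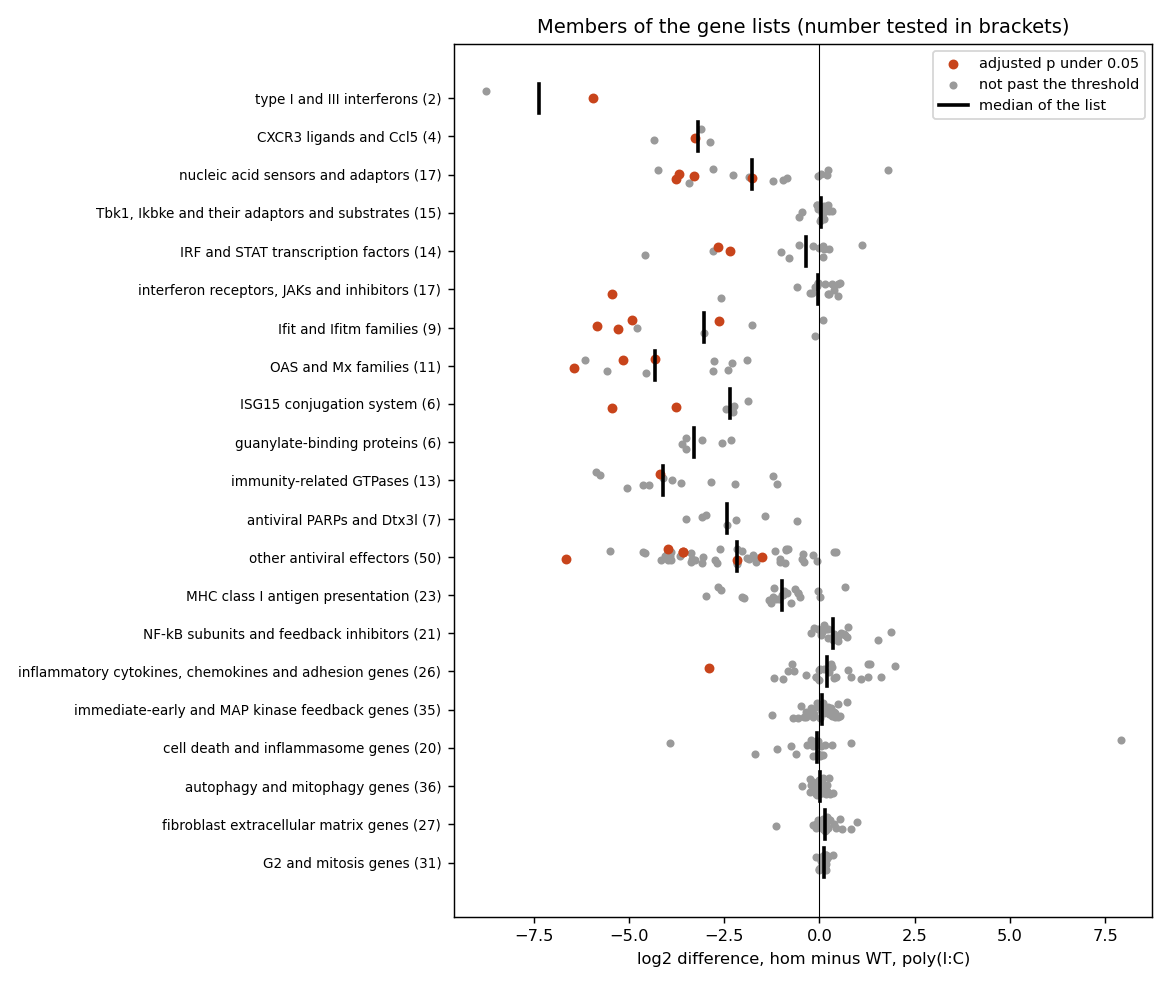
Each point is 1 tested member of a gene list, placed by its log2 difference between hom and WT lines under poly(I:C); red points passed the test and black bars are list medians. Effector lists lie left of 0 with medians from -2.16 to -4.31, and the lists of kinase adaptors, autophagy, matrix and mitosis genes sit around 0.

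Within the Ifit and Ifitm families, whose proteins bind viral RNA or block viral entry, 4 of 9 tested genes were called (0.254% of all genes). Their list had a median of -3.02. Ifit1 (chromosome 19, 34640871 to 34650009, plus strand), with the paired ISRE cores printed above, stood at 903, 888 and 1099 CPM in WT and 14.2, 34.3 and 47.0 CPM in hom lines. The highest hom line was under the lowest untreated WT line (107 CPM), and the difference was -4.93 ± 0.87 (log2, SE; edgeR adjusted p = 0.0222). Ifit2 had 159, 151 and 202 CPM against 28.01, 20.3 and 34 CPM (-2.63 ± 0.55; adjusted p = 0.0415). Ifit3 and its near-identical copy Ifit3b differed by -5.30 ± 1.07 and -5.84 ± 1.10 (adjusted p = 0.0356 and 0.0222), and since reads are shared out between copies, each value is less certain than their joint fall. Ifit3b had 2786 pooled counts in WT and 48 in hom lines.

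Of 11 tested OAS and Mx genes, for enzymes that trigger decay of viral RNA and for GTPases that trap virus particles, 3 were called. Over all genes 0.254% were called lower, and the list's median was -4.31. Oasl1 had the smallest p of all genes: 161, 131 and 149 CPM in WT and 4.69, 3.63 and 3.74 CPM in hom lines, or -5.17 ± 0.77 (log2, SE; edgeR adjusted p = 0.00816). Mx2 stood at 206, 129.4 and 184 CPM in WT and 1.17, 0.725 and 3.92 CPM in hom lines, and Oas1b at 49.8, 31.6 and 34.99 CPM and 1.69, 1.21 and 2.85 CPM. GENCODE lists both as polymorphic pseudogenes in the reference strain. Their differences were -6.45 ± 1.19 and -4.31 ± 0.81 (adjusted p = 0.0222 each).

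ISG15 is a ubiquitin-like protein that is attached to other proteins during infection. Isg15 (chromosome 4, 156199424 to 156200818, minus strand), with 3 overlapping ISRE cores in its promoter, stood at 384, 304 and 334 CPM in WT and 10.6, 35.1 and 31.2 CPM in hom lines. All hom lines were under the untreated WT range of 107 to 168 CPM, and the difference was -3.76 ± 0.76 (log2, SE; edgeR adjusted p = 0.0356). With Usp18 it made 2 calls among the 6 genes of ISG15 conjugation (median -2.35), against 0.254% of all genes. In all 6 every hom line lay under every WT line (5.46% of all genes). Trim25, a ligase of the system that also acts on RIG-I, had 140, 272 and 257 CPM against 39.7, 39.9 and 60.2 CPM (adjusted p = 0.0936).

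Immunity-related GTPases and guanylate-binding proteins attack the vacuoles in which microbes live. Irgm2, of the first family, stood at 123, 168 and 210 CPM in WT and 5.34, 8.46 and 14.1 CPM in hom lines (-4.18 ± 0.90; edgeR adjusted p = 0.0469). It was the 1 call among 13 tested immunity-related GTPases (0.254% of all genes), whose median was -4.11. In all 13 every hom line lay under every WT line (5.46% of all genes). The fit without het lines called 10 (1.18% of all genes). Igtp had 85.9, 136 and 155 CPM against 3.78, 5.32 and 12.8 CPM (adjusted p = 0.0888), and Iigp1 had 99.0, 138 and 224 CPM against 0.391, 0.484 and 7.66 CPM (adjusted p = 0.0818). In both, hom E2.9 was the highest hom line. Of 6 tested guanylate-binding protein genes 0 were called by the 9-group edgeR fit (0.254% of all genes). Without the het lines 5 were called (1.18% of all genes), and the median was -3.29. Gbp7 ran from 71.3 to 113 CPM in WT and from 2.87 to 12.1 CPM in hom lines, and Gbp3 from 95.2 to 121 and from 4.30 to 15.7 CPM.

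Antiviral PARPs, among them the product of Zc3hav1, which binds CpG-rich RNA, act on viral RNA and signalling. In all 7 tested genes every hom line lay under every WT line (5.46% of all genes), with a median of -2.42. The 9-group edgeR fit called 0 (0.254% of all genes), and 6 were called without the het lines (1.18% of all genes). Dtx3l stood at 141, 196 and 198 CPM in WT and 9.64, 18.9 and 35.4 CPM in hom lines, and Parp9, its partner, at 115, 172 and 162 CPM and 13.3, 16.2 and 27.95 CPM (adjusted p = 0.0958 each). Zc3hav1 had 279, 310 and 297 CPM in WT and 104, 94.5 and 133 CPM in hom lines (adjusted p = 0.171).

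In the list of other antiviral effectors 6 of 50 tested genes were called (0.254% of all genes), and 34 without the het lines (1.18%). In 43 every hom line lay under every WT line (5.46% of all genes), and the median was -2.16. Ifi44 had the largest gap of all called genes: 109, 102 and 96.7 CPM in WT and 0.521, 1.21 and 1.42 CPM in hom lines. Pooled, 1751 counts stood against 17, a ratio of 106 (95% exact interval 66.0 to 182, counting error only; edgeR adjusted p = 0.0486). Trim21, a cytosolic antibody receptor, had 83.8, 116 and 135 CPM against 5.21, 10.4 and 13 CPM (-3.57 ± 0.76; adjusted p = 0.0442). Trim34a, which may share reads with related Trim genes of its locus, had 27.8, 30.2 and 30.9 CPM against 1.82, 2.18 and 3.38 CPM (adjusted p = 0.043). Pml, which organises nuclear bodies, and Znfx1, a helicase that binds viral RNA at mitochondria, differed less, by -1.51 ± 0.32 (adjusted p = 0.0405) and -2.15 ± 0.41 (adjusted p = 0.0222).

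Cd274 belongs to the same list and encodes the immune checkpoint ligand PD-L1. It stood at 32, 49.7 and 55.6 CPM in WT and 1.82, 1.69 and 5.16 CPM in hom lines, while untreated WT lines had 3.26 to 3.56 CPM and untreated hom lines 1.4 to 1.5 CPM. The WT lines were 9.59 to 17.1 times their untreated level and the hom lines 1.23 to 3.42 times theirs, with no overlap. The gap under poly(I:C) was -3.97 ± 0.86 (log2, SE; edgeR adjusted p = 0.0469). Rsad2, the gene of viperin, had 401, 367 and 427 CPM in WT and 2.74, 3.87 and 20.1 CPM in hom lines, a gap of -5.48 ± 1.26 that missed the threshold in the 9-group fit (adjusted p = 0.0658; 3.11e-05 without the het lines).

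MHC class I molecules show peptides from inside the cell to T cells. Of 23 tested genes of this pathway, 0 were called in either direction by the 9-group edgeR fit. With 0.254% of all genes called lower and 0% higher, that 0 does not set the list apart. Without the het lines 6 were called lower (1.18% of all genes). In 19 every hom line lay under every WT line (5.46% of all genes), and the median was -0.97. Tap1, the peptide transporter, stood at 40, 68.7 and 78.0 CPM in WT and 6.38, 9.19 and 8.19 CPM in hom lines (-2.98 ± 0.77; adjusted p = 0.111, and 7.24e-06 without the het lines). The immunoproteasome gene Psmb9 had 2.62, 5.68 and 7.32 CPM against 0.391, 1.45 and 0.712 CPM, and the class I gene H2-T22 had 48.5, 64.7 and 73.6 CPM against 23.8, 24.4 and 28.5 CPM (adjusted p = 0.328 and 0.337). WT E1.5 was the lowest WT line in all 3 genes.

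Among the 34 called genes 25 stood in a list and 9 in none. Outside the lists, Ccne1, Ppp1r15a, Ncoa7 and Gnb4 shared a pattern: all 3 WT lines were higher under poly(I:C) than untreated and all 3 hom lines lower, which 0.898% of all tested genes showed (0.756% the reverse). Some of these moves were very small: Ccne1 in hom E2.2 was 0.998 times its untreated CPM, and Gnb4 was 1.02 to 1.13 times in WT lines. Ppp1r15a (chromosome 7, 45522916 to 45526268, minus strand) encodes GADD34, which restores translation after eIF2α is phosphorylated. It stood at 157, 98.3 and 179 CPM in WT and 65.9, 46.4 and 58.6 CPM in hom lines, against 66.1 to 75.6 and 55.8 to 76.4 CPM untreated. So the lines overlapped before treatment and not after it, with a gap of -1.34 ± 0.27 (log2, SE; edgeR adjusted p = 0.0356). Ccne1, the gene of cyclin E1 (chromosome 7, 38097984 to 38107534, minus strand), had 65.4, 76.9 and 60.6 CPM in WT and 24.4, 31.9 and 28.7 CPM in hom lines, from 39.6 to 48.1 and 31.99 to 37.3 CPM untreated (-1.26 ± 0.23; adjusted p = 0.0222).

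Ncoa7, a gene with an interferon-driven isoform that blocks viral entry, stood at 56.4, 68.3 and 71.6 CPM in WT and 12.9, 17.4 and 16.02 CPM in hom lines (-2.09 ± 0.41; edgeR adjusted p = 0.0305). Gnb4, a G protein beta subunit gene, differed least of the 34, with 68.6, 71.8 and 68.2 CPM against 24.9, 35.3 and 36.5 CPM (-1.11 ± 0.23; adjusted p = 0.0356), and its untreated hom lines (29.7 to 46.7 CPM) were already under the untreated WT lines (63.2 to 67.0 CPM). Dok1, an adaptor that restrains tyrosine kinase signalling, had 96.1, 100 and 85.1 CPM against 28.9, 47.6 and 50.9 CPM (-1.15 ± 0.21; adjusted p = 0.0222). Zfp945, a zinc finger gene, was the 1 called gene that was not higher in every treated WT line: 24, 19.3 and 15.6 CPM in WT and 9.38, 6.53 and 7.12 CPM in hom lines (adjusted p = 0.0486). The last of the 9 are Apol7a, with 104 pooled counts in WT against 3 in hom lines (ratio 35.7, 95% exact interval 11.9 to 176, counting error only), and Gm12185 and the processed transcript Gm20559, with 7.74 to 10.3 and 20.1 to 21.9 CPM in WT and at most 0.534 and 0.890 CPM in hom lines. The strand setting of the counting is not given in the sources used here, so reads of overlapping genes on opposite strands may be mixed for such loci.

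None of 21 tested genes for NF-κB subunits and feedback inhibitors was called in either direction by edgeR, nor in the fit without het lines, and 17 overlapped. With 0.254% of all genes called lower and 0% higher, no call is also what a list of this size would show, so the count sets it apart from no other list. The median was 0.37, and 0.11 without hom E2.9. Tnfaip3, the gene of the inhibitor A20, stood at 192, 131 and 141 CPM in WT and 166, 92.6 and 220 CPM in hom lines, from 21.3 to 40.2 and 20.2 to 44.2 CPM untreated. Every line of both genotypes was thus higher under poly(I:C), and the gap of 0.05 ± 0.46 (log2, SE) changed sign without WT E2.1, WT E2.7 or hom E2.9. Nfkbia, the gene of IκBα, had 124, 99.8 and 122 CPM against 79.1, 108 and 214 CPM, and its gap of 0.22 ± 0.33 was -0.29 without hom E2.9. Traf1 had 3.02, 3.24 and 5.03 CPM in WT and 3.39, 7.98 and 21.2 CPM in hom lines, with E2.9, the line with macrophage markers, again the highest. Tnip1, another inhibitor, had no overlap, at 27.02 to 44.8 CPM in WT and 54.6 to 69.3 CPM in hom lines (0.75 ± 0.30; adjusted p = 0.882).

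Inflammatory genes other than Il6 did not pass in either direction. Icam1, an adhesion gene, stood at 13.1, 29.4 and 53.1 CPM in WT and 56.7, 88.0 and 95.6 CPM in hom lines, with no overlap and wide spread (1.34 ± 0.69; edgeR adjusted p = 1.0). Sod2, the mitochondrial superoxide dismutase gene and a target of NF-κB, overlapped at 49.6 to 63.1 and 52.9 to 92.4 CPM. Of the 26 tested inflammatory genes 11 had a negative difference and the median was 0.19; without hom E2.9, 15 were negative and the median was -0.22. Among 35 immediate-early and MAP kinase feedback genes, 0 were called by edgeR in either fit and the median was 0.07. At 0.254% and 1.18% of all genes called in these fits, that 0 does not set the list apart. Atf3, a stress-response repressor, had 153, 62.9 and 86.2 CPM against 51.1, 23.5 and 52.9 CPM, and Zfp36, whose product destabilises cytokine mRNAs, 44.9, 44.0 and 55.3 CPM against 28.1, 25.1 and 35.96 CPM. Neither overlapped and neither passed (adjusted p = 0.614 and 0.462), and Dusp8 (0.54 ± 0.23) overlapped.

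Of 20 cell death and inflammasome genes, whose median was -0.07, the 9-group edgeR fit called 0 (0.254% of all genes). Without the het lines 1 was called (1.18% of all genes). That was Mlkl, the effector of necroptosis, at 28.5, 32.9 and 37.1 CPM in WT and 11.7, 9.43 and 9.26 CPM in hom lines (-1.68 ± 0.48; adjusted p = 0.215 and 3.79e-05). Tnfsf10, which encodes TRAIL, had 3.54, 5.07 and 11.9 CPM against 0, 0.484 and 0.890 CPM (adjusted p = 0.4). Bcl2a1b had counts in hom E2.9 alone, at 13.4 CPM under poly(I:C) and 2.39 CPM untreated.

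TBK1 also phosphorylates receptors of selective autophagy. None of 36 tested autophagy and mitophagy genes was called by edgeR in either fit, 32 overlapped, and the median was 0.01. Over all genes, 0.254% were called in the 9-group fit, 1.18% without the het lines, and 11934 of 13364 overlapped. So neither count sets this list apart. Sqstm1, the gene of the receptor p62, stood at 594, 458 and 481 CPM in WT and 433, 430 and 496 CPM in hom lines (-0.17 ± 0.17), and Optn, for optineurin, at 16.5, 15.6 and 23.6 CPM and 19.9, 17.7 and 19.8 CPM (0.05 ± 0.21; edgeR adjusted p = 1.0 each). The members with the smallest p were Atg12 (-0.24 ± 0.10), Atg4b (0.20 ± 0.09) and Atg3 (-0.25 ± 0.12).

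Matrix and mitosis genes gave 0 calls in either fit, by edgeR, of 27 and 31 tested, with medians of 0.16 and 0.13. Most lists of this size would show no call, with 0.254% and 1.18% of all genes called in these fits. Col1a1, the chief fibroblast collagen, stood at 1692, 3203 and 2408 CPM in WT and 4017, 3718 and 2870 CPM in hom lines, which overlapped, as did Col3a1 and Fbn1. Cenpf, a kinetochore gene, had no overlap at 102 to 110 CPM in WT and 122 to 147 CPM in hom lines (0.37 ± 0.23; adjusted p = 1.0), while Ccnb1 and Kif4 overlapped.

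No gene was called higher in hom lines, and the smallest adjusted p in that direction was 0.0958 (edgeR). It belongs to Zhx2, a zinc finger and homeobox gene, at 7.48, 8.31 and 8.004 CPM in WT and 11.99, 11.1 and 13.2 CPM in hom lines (0.61 ± 0.15). Bach1, a repressor of oxidative stress genes, stood at 52.1, 55.2 and 56.3 CPM in WT and 84.8, 70.4 and 79.4 CPM in hom lines (0.52 ± 0.13; adjusted p = 0.111). Untreated, its lines overlapped at 68.2 to 78.8 and 57.9 to 72.9 CPM, so treated WT lines were under their untreated level. Dlc1, a tumour suppressor gene (0.44 ± 0.11), Mtss1, a membrane-bending gene (1.09 ± 0.30), and Ifngr2, a chain of the interferon gamma receptor (0.48 ± 0.14), complete the 5 with the smallest p (adjusted p = 0.105, 0.185 and 0.233).

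The 6 untreated libraries show how much of the gap was there before poly(I:C). Ifit1 and Ccl5 passed in untreated cells too, 0.015% of genes as lower and 0% as higher. Ifit1 stood at 144, 107 and 123 CPM in untreated WT and 1.36, 4.89 and 1.64 CPM in untreated hom lines (-5.56 ± 0.96; edgeR adjusted p = 0.0387), and Ccl5 at 48.9, 20.7 and 29.3 CPM and 0.986, 1.26 and 1.01 CPM (-4.91 ± 0.83; adjusted p = 0.0387). For 30 of the 34 genes every untreated hom line lay under every untreated WT line (4.78% of all genes). Over the 102 effector genes the median difference was -2.25 untreated and -2.81 under poly(I:C), and 83 had no overlap untreated.

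The gap under poly(I:C) was then compared with the gap in untreated cells of the same lines. By that test 0 genes passed in edgeR (0% of 13364; smallest adjusted p = 1.0; 156 at an unadjusted p under 0.05), and 0 passed with the line as a replicate block (0%; smallest adjusted p = 0.103; 742 unadjusted). DESeq2 called 0 as well. So no gene was shown to differ more under poly(I:C) than before it, and the sizes below are descriptions. The test could not pass for Ifnb1 or Ifna4, since no untreated library of these lines had a count of either. Their SEs were 20270 and 21413 in the 9-group fit. Their gaps were seen under poly(I:C) alone, where Ifnb1 stood at 9.33 to 23.6 CPM in WT and 0 to 0.534 CPM in hom lines. The difference of gaps was -0.44 ± 1.44 (log2, SE) for Oasl1, 0.63 ± 1.17 for Ifit1, 0.44 ± 1.02 for Isg15 and -0.30 ± 0.76 for Ifih1. It was -3.34 ± 0.95 for Il6, -2.76 ± 1.27 for Cd274, -1.69 ± 0.75 for Ifit2 and -1.25 ± 0.38 for Ppp1r15a. These SEs take libraries of 1 line as independent. With the line as a fixed term, Oasl1 had -0.45 ± 0.75, Ifit1 0.65 ± 0.61, Isg15 0.38 ± 0.36 and Ifih1 -0.28 ± 0.38. Il6 had -3.31 ± 0.70, Cd274 -2.75 ± 0.55, Ifit2 -1.685 ± 0.40 and Ppp1r15a -1.22 ± 0.22 in that fit. None of these genes passed there.

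Line by line, most of the 34 genes were higher under poly(I:C) than untreated in both genotypes: 33 in all 3 WT lines (30.3% of all genes) and 19 in all 3 hom lines (19.2%). Ifit1 was 6.29 to 8.97 times its untreated CPM in WT lines and 7.02 to 28.7 times in hom lines. Isg15 was 2.29 to 3.12 times its untreated level in WT and 2.25 to 4.34 times in hom lines. For Isg15 the factors of the groups overlapped, and for Ifit1 hom E2.9 had the highest factor of the 6 lines; the untreated hom libraries held 11 to 39 counts of Ifit1. For Ifit2 the hom factors lay under the WT factors, at 2.71 to 3.71 times in WT and 0.683 to 1.29 times in hom lines, as was Stat2, at 3.06 to 3.31 and 1.64 to 2.104 times. Of the 18 called genes with at least 10 untreated counts in each line, 15 had every hom factor under every WT factor, against 5.29% of 11241 genes. These genes were called on the same poly(I:C) libraries, so the count is no further test. It also leaves out called genes with few untreated counts, whose factors went both ways. Hom factors lay above WT factors for Ddx60 (3.66 to 6.06 against 3.24 to 3.46) and under them for Apol7a (0.264 to 1.41 against 2.85 to 7.08). Those of Usp18 overlapped (2.89 to 11.1 against 2.58 to 4.65).

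**Figure D4:**
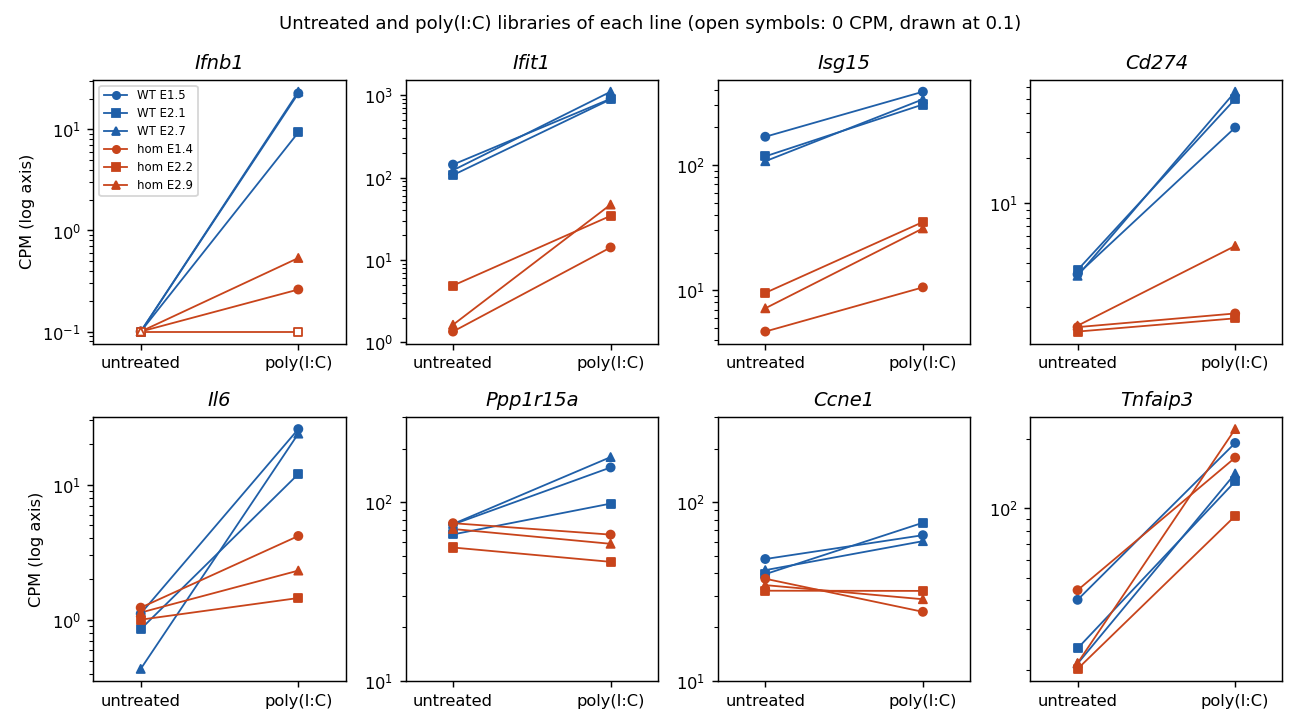
CPM on log axes for 8 genes, untreated and under poly(I:C), with a line joining the 2 libraries of each WT (blue) and hom (red) cell line and open symbols for 0 CPM. Ifit1 and Isg15 start apart and are higher under poly(I:C) in every line, Il6, Ppp1r15a and Ccne1 part from shared or nearby starts, and Tnfaip3 overlaps throughout.

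The het lines, which carry 1 N129D allele, had no part in choosing the lines compared. All 4 het lines were above all 3 hom lines in 34 of the 34 genes (2.64% of all genes; the hom values are those the genes were called on). They differed widely among themselves: E2.5 was above all WT lines in 34 genes (26.7% of all genes) and E2.6 below all WT lines in 34 (32.7%). Against the WT mean, the median of the 34 genes was -0.26 in E1.3, 1.21 in E2.5, -1.68 in E2.6 and -0.25 in E2.8 (log2 of CPM + 0.1), while it was -4.42, -3.51 and -3.16 in the hom lines. Ifnb1 stood at 18.9, 50.7, 7.41 and 10.8 CPM in the 4 het lines in that order, and Ifit1 at 726, 2414, 162 and 982 CPM. Macrophage markers summed to 64.2 CPM in E2.6 and 5.83 to 10.8 CPM in the other het lines; their part in its level was not tested. These lines add to the spread that the 9-group fit pools. In bulk RNA, fewer responding cells and less RNA per responding cell cannot be told apart.

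**Figure D5:**
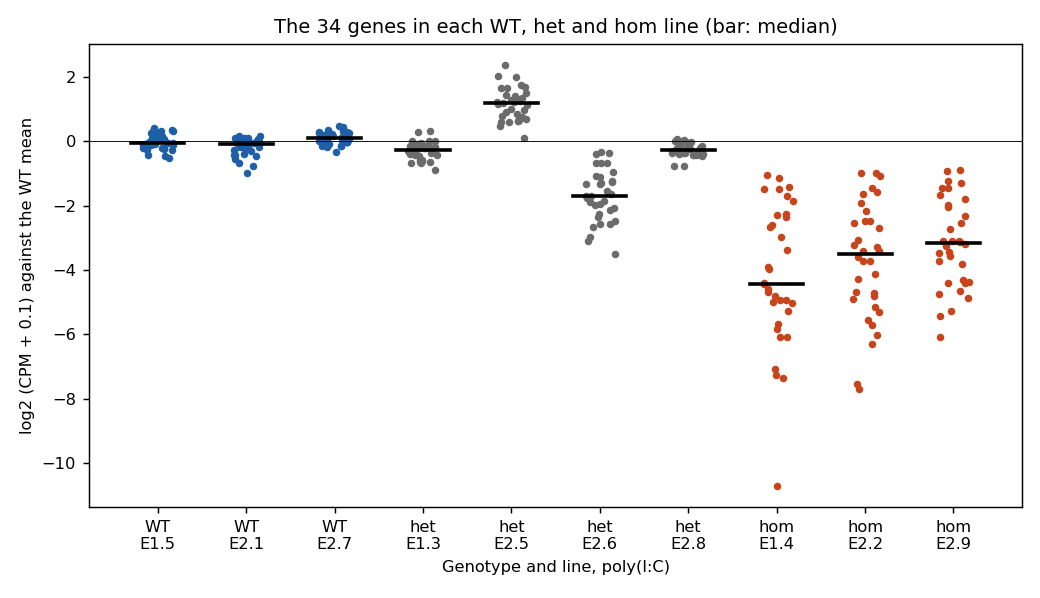
Each point is 1 of the 34 genes in 1 line under poly(I:C), as log2 of CPM + 0.1 against the WT mean, with bars at the median of each line. The hom lines sit lowest (medians -3.16 to -4.42), het E2.6 lies between them and the WT lines at -1.68, and het E2.5 is above the WT lines at 1.21.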

How the data were processed

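Polyadenylated RNA of mouse embryonic fibroblasts was sequenced, and the authors deposited expected counts per gene, which need not be whole. STAR, RSEM and the mm10 genome appear per the submitters' processing notes, without versions or a strand setting. The expected counts were rounded, and gene names and positions came from GENCODE vM21 on GRCm38. Genes passing filterByExpr (minimum count 10, minimum total 15) were scaled by TMM and fitted in edgeR 4.0.16 (quasi-likelihood test, R 4.3.3) over 30 libraries in 9 groups of genotype and treatment, with Benjamini-Hochberg adjustment at 0.05 and no fold limit. The treatments were none, poly(I:C), and antimycin with oligomycin. The spread is pooled over all groups, het included, and libraries of 1 line are taken as independent. The 6 density libraries of WT E1.5 were left out of the fit.

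Libraries of the same line deviated together from their group means (30 pairs, r 0.35 to 0.78), so the line was also tried as a replicate block, in limma 3.58.1 and as a fixed term. That pairing comes from the line names. Other alternatives were RLE factors, no filter, DESeq2 1.42.0, the compared groups alone, WT and hom libraries of all treatments, covariates, each line left out and robust estimation. Pooled ratios carry exact 95% intervals, and CPM uses the TMM-scaled library size.

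The members were chosen from the sample titles alone. The 21 gene lists and 11 marker lists were chosen with earlier results of these data known. Genes were named by a rule: those called (at most 40), the 3 with the smallest p in each list, the 5 with the smallest p in the other direction without overlap (mean log2 CPM 1 or more), and 16 pathway genes, 1 of which is not reported here. The steps were tested on simulated counts. No 2 libraries of a compared group held the same counts within sampling noise.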

Additional observations from a re-analysis of the deposited data

Results flagged for a closer look

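Rsad2, the gene of viperin, was far higher in het line E2.5 under poly(I:C) than in the other het lines, with 2021 CPM against 340, 108 and 243 CPM in E1.3, E2.6 and E2.8. The gap to the nearest line was 0.879 of the whole range, above Dixon's critical value for 4 samples; 6 such tests were run, and chance flags about 1 in 20 groups.

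In 4 called genes all WT lines were higher and all hom lines lower under poly(I:C) than untreated. The smallest moves among them hardly differ from no change, at 0.998 times for Ccne1 in hom E2.2 and 1.02 times for Gnb4 in WT E1.5. The difference between the gap under poly(I:C) and the untreated gap was -0.94 (log2) for Ccne1, -1.32 for Ncoa7, -1.25 for Ppp1r15a and -0.45 for Gnb4. That difference was tested across all genes by edgeR and none of the 4 passed.

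The density series of WT line E1.5, which no comparison used, also held an Ifnb1 signal. Under poly(I:C) the high-density library had 43.8 CPM (700 counts) and the low-density library 1.63 CPM (8 counts). The library without a density label had 22.6 CPM (173 counts) on the same scale. The untreated libraries had 1 count at high density and none at low density or without a density label. Each density is 1 library, so there is no replicate check.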

How the results depend on the processing

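The 34 genes called lower kept their direction under each of the 21 alternatives, while their number moved. It was 30 with RLE factors, 51 without the filter on low counts, 28 with Y-linked expression and 58 with the E1 or E2 part of the line name as a covariate, 118 with the compared groups alone, 152 with the WT and hom libraries of all treatments, and 101 with DESeq2. Robust estimation of the spread, an alternative added after seeing the data, gave 25. With 1 line left out the number was 0 to 2 in the 9-group fit. In the fit without het lines (leaving out lines there was added after seeing the data) it was 115, 100 and 103 without WT E1.5, E2.1 and E2.7, and 162, 108 and 130 without hom E1.4, E2.2 and E2.9. The cause of these moves was not tested. Genes called higher numbered 0, except 1 with the E1 or E2 covariate (Atp2b4), 2 with DESeq2, 0 to 1 with a line left out (Zfp469 without WT E2.1) and, in the fit without het lines, 17 without hom E1.4, 5 without WT E2.1 and 1 without WT E2.7. With the line as a replicate block (a random effect in limma-voom), 67 genes were lower, 25 of the 34 among them, and 0 were higher. The difference of gaps called 0 genes under every alternative, with a smallest adjusted p of 0.0666 to 1.0.

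Of the 54 named genes that were not called, 25 passed under at least 1 alternative and 5 changed sign. With 1 line left out of the 9-group fit, the log2 difference ran from -0.29 (without hom E2.9) to 0.49 for Nfkbia, from -0.11 to 0.028 (without WT E2.1) for Tbk1, from -0.053 (without WT E2.1; -0.038 without WT E1.5) to 0.24 for Optn, from -0.18 to 0.048 (without hom E1.4; 0.029 without WT E2.7) for Ikbke, and from -0.25 (without hom E2.9; -0.056 and -0.022 without WT E2.1 and E2.7) to 0.32 for Tnfaip3. In the fit without het lines the same lines gave -0.31 for Nfkbia, 0.025 for Tbk1, -0.056 and -0.035 for Optn, 0.048 and 0.036 for Ikbke, and -0.26, -0.058 and -0.016 for Tnfaip3. Tnfaip3 was -0.028 with the replicate block. The number of counts limits genes near 0 in hom lines, such as Ifnb1 with 5 pooled counts.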

Other observations

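The fit on the 18 WT and hom libraries of all treatments called 118 genes lower in hom lines under poly(I:C) that the 9-group fit did not call, 78 of them in a list and 40 in none. In all 118 every hom line was below every WT line (5.46% of all genes). The genes given here stand in no list and were chosen after their values were seen, so they describe the calls and support nothing further. Rnf213, a giant ubiquitin ligase gene, stood at 634, 793 and 652 CPM in WT lines and 83.5, 96.2 and 131 CPM in hom lines, in the order of lines used above. Its difference was -2.74 ± 0.34 (log2, SE; edgeR adjusted p = 0.00016). Mov10, the gene of an RNA helicase that restricts retroelements and viruses, had 56.4, 64.9 and 67.2 CPM against 21.6, 25.9 and 24.8 CPM (-1.39 ± 0.20; adjusted p = 0.000799). Tdrd7, a Tudor domain gene, had 54.3, 59.4 and 71.1 CPM against 22.1, 23.9 and 21.2 CPM (-1.46 ± 0.16; adjusted p = 3.11e-05).

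Genes of other functions were among the 40. Mitd1, whose product acts with the ESCRT-III complex at the end of cell division, had 39.9, 48.7 and 49.6 CPM against 11.2, 11.4 and 15.8 CPM (-1.84 ± 0.15; edgeR adjusted p = 3.92e-06). Tent5a, a poly(A) polymerase gene, had 65.2, 88.0 and 91.5 CPM against 13.03, 27.8 and 22.2 CPM (-1.97 ± 0.32; adjusted p = 0.00263), and untreated it stood at 23.8, 21.5 and 17.6 CPM in WT and 8.26, 14.6 and 11.1 CPM in hom lines. Lgals8, the gene of a galectin that marks damaged vesicles for autophagy, differed by -0.92 ± 0.19 (adjusted p = 0.0248), and Cmtr1, for an mRNA cap methyltransferase, by -0.84 ± 0.16 (adjusted p = 0.00826). Rnf31, the gene of the catalytic subunit of the linear ubiquitin ligase, differed by -0.66 ± 0.15 (adjusted p = 0.0469).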
